A study of Homo sapiens with 24 samples.

Results

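The kinase inhibitor R406 was given to 2 human myeloid leukaemia cell lines, HL-60 and U937, and the comparison described here is between the lines: the R406 effect in HL-60 (R406 minus DMSO) minus the R406 effect in U937 (R406 minus DMSO), called the interaction below. Every probe set that carries a single gene symbol was taken, 19724 of the 22277 on the array, and each of the 12165 genes was read from its brightest probe set. The 4 groups were HL-60 with R406, HL-60 with the vehicle DMSO, U937 with R406 and U937 with DMSO, with 3 arrays each, which are 12 of the 24 arrays and 4 of the 8 groups of the series. Exposure lasted 24 h at 4 µM R406, and RNA was read on Affymetrix HT U133A arrays. HL-60 is a promyelocytic and U937 a monocytic line, each grown from cells of 1 patient, so a difference between them is a difference between these 2 lines. Whether the 3 arrays of a group stem from separate cultures is not stated in the labels, and every p-value therefore rests on array-to-array spread that may be technical only.

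R406, the active form of fostamatinib, blocks the ATP site of spleen tyrosine kinase (SYK) and, less selectively, of other kinases. In myeloid cells SYK docks on ITAM motifs of Fc receptor chains and relays integrin and Fc receptor signals to phospholipase C, PI3 kinase and the RAS-ERK cascade. ERK activity is read out by immediate early genes such as EGR1 and by feedback inhibitors such as the DUSP phosphatases and Sprouty proteins. Promyelocytes make the serine proteases of the primary granule, and that program is shut off as the cells mature.

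Levels are the deposited array intensities and effects are differences of log2(intensity + 1), so that a difference of 1 is 2-fold. A gene was called at a limma adjusted p below 0.05, with the Benjamini-Hochberg adjustment over all 19724 probe sets. The labels were checked against markers in the vehicle-treated cells. MPO, myeloperoxidase, averaged 6416 ± 114 in HL-60 and 10.9 ± 1.03 in U937 (SD, n = 3 each), whereas the granule proteases CTSG (817 in HL-60 and 6414 in U937) and ELANE (2642 in HL-60 and 2944 in U937) were bright in both lines. The monocyte genes CSF1R and CD68 stayed below the median intensity of 22.2 in all 4 groups, and CD14 averaged 279 in HL-60 and 7.40 in U937. MPO thus set the lines apart, while CSF1R, CD68 and CD14 did not mark U937. The median log2 difference in DMSO, HL-60 minus U937, was 0.482 over 7 measured monocytic markers. Over 7 measured promyelocyte markers it was -0.159, so neither list as a whole ran the way of its line's name.

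Of the 12165 genes, 473 (3.89%) had a higher R406 effect in HL-60 than in U937 and 618 (5.08%) a lower one. Within HL-60 the same fit called 1128 genes (9.27%) higher and 1144 (9.4%) lower with R406, and within U937 it called 1012 (8.32%) higher and 845 (6.95%) lower. These shares of all genes are the background for every list count below, and a count near them is no result about the list. Counted over probe sets, the calls were 700 higher (3.55%) and 840 lower (4.26%) in the interaction, 1625 (8.24%) and 1594 (8.08%) in HL-60, and 1370 (6.95%) and 1224 (6.21%) in U937. With each array centred on its median, the probe set counts were 1492 higher and 1757 lower in HL-60 and 1110 higher and 1548 lower in U937, so the larger side turned in both lines. Most of the 473 genes, 278 (58.8%), were higher with R406 in HL-60 and not called in U937. A further 87 were called lower in U937 only, and 66 moved in opposite directions, higher in HL-60 and lower in U937. Among the 618, 266 were called lower in HL-60 only, 218 higher in U937 only, and 80 were lower in HL-60 and higher in U937. At the other end, 689 genes were called the same way in both lines, 336 higher and 353 lower, and 43 of these also differed in size. Across all genes the effects in the lines correlated with a Pearson r of 0.215 and a Spearman rho of 0.274. The lines share no arrays, and the 12165 genes are not independent replicates. With no test of single genes, the 3 R406 arrays lay wholly above or below the 3 DMSO arrays for 3987 genes (32.8%) in HL-60 and 4141 (34.0%) in U937, which is the background for separate groups in the sentences below.

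**Figure D1:**
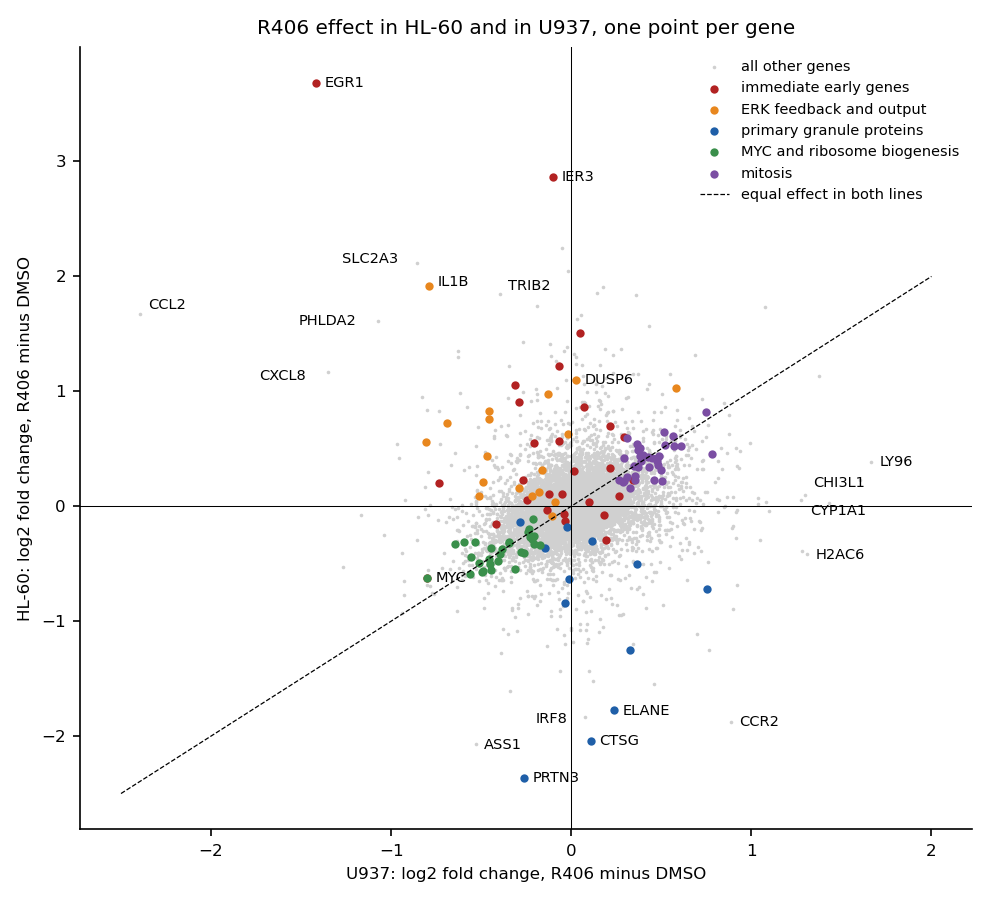
Each point is 1 gene, with the log2 R406 effect (R406 minus DMSO) in U937 on the x axis and in HL-60 on the y axis. The dashed line marks equal effects, and 5 gene lists are coloured. EGR1 (3.69 in HL-60, -1.42 in U937) and CCL2 (1.68 in HL-60, -2.40 in U937) lie above the line in the upper left, most primary granule genes lie below it, and the mitosis and ribosome biogenesis genes lie near it.

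The gene with the highest interaction was EGR1, an immediate early zinc finger factor induced by ERK. EGR1 intensity was 686, 682 and 526 in HL-60 with R406, against 46.9, 62.7 and 36.9 in HL-60 with DMSO. In U937 it was 13.6, 15.8 and 15.2 with R406, against 31.4, 43.6 and 51.2 with DMSO. All 3 R406 arrays lay above the DMSO arrays in HL-60 and below them in U937. The effect was 3.69 in HL-60 and -1.42 in U937, an interaction of 5.10 ± 0.27 (SE, limma adjusted p = 7.97e-08). A second EGR1 probe set gave an interaction of 2.97, with 2.83 in HL-60 and -0.14 in U937, so only the HL-60 side was called by both. The window around the EGR1 start is shown because it holds 2 CArG boxes, the element bound by serum response factor, which joins ERK signals to immediate early genes. It spans chr5:138465229-138465528 on the plus strand of GRCh38.p14 in RefSeq, from 250 bases before the start to 50 after it, and capitals mark the 2 CArG boxes, at -105 to -96 and -83 to -74 from the start.
EGR1 promoter: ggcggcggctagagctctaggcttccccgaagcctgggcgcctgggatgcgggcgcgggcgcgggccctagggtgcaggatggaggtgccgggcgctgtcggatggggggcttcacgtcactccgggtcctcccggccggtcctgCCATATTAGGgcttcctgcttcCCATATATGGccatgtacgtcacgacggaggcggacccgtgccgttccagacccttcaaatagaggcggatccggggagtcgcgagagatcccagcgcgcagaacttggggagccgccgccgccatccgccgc
A CArG box was found in 351 of 27305 RefSeq windows of this length (1.29%) and in 2 of the 20 immediate early genes with a window, EGR1 and SRF. SRF itself had an interaction of 0.31 that was not called (adjusted p = 0.0776). Matches on either strand were counted, and a match is a run of letters and not a measured binding site.

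Of 28 measured immediate early genes, the fast transcription factors and RNA regulators that ERK and stress kinases switch on, 12 had a higher R406 effect in HL-60 and 1 a lower one, against 3.89% and 5.08% of all genes. The median interaction of the list was 0.30, and that of all genes -0.0034. In HL-60 12 members were higher with R406 and 1 lower, with a median effect of 0.23, and in U937 1 was higher and 7 were lower, with a median of -0.061. The U937 count fell to 4 when U937 R406 replicate 2 or 3, or U937 DMSO replicate 2 or 3, was left out. IER3, an ERK-induced survival gene, measured 547, 656 and 547 in HL-60 with R406, against 73.0, 81.6 and 82.5 with DMSO. In U937 IER3 measured 32.2, 33.6 and 33.1 with R406, against 29.4, 36.2 and 41.5 with DMSO. The HL-60 groups were far apart and the U937 groups overlapped. Its effect was 2.87 in HL-60 and -0.099 in U937, and the interaction was 2.96 ± 0.15 (SE, adjusted p = 7.97e-08). The AP-1 subunits followed the same order of effects. JUN had 1.51 in HL-60 and 0.046 in U937 (interaction 1.46 ± 0.11), and JUNB had 0.91 in HL-60 and -0.29 in U937 (interaction 1.20 ± 0.089). FOS had 1.22 in HL-60 and -0.070 in U937, and its interaction of 1.29 ± 0.36 (SE, adjusted p = 0.0461) lost its call in 10 of 21 other settings, 9 of which leave out 1 array other than HL-60 R406 replicate 3, HL-60 DMSO replicate 1 or U937 DMSO replicate 1. The single member with a lower interaction, named after its value was seen, was KLF4 (-0.49), a factor of monocyte differentiation, and its call was lost without any 1 array other than HL-60 R406 replicate 3, U937 R406 replicate 1 or U937 DMSO replicate 3. The 1 lower in HL-60 was 1 or 2, and the 1 higher in U937 0 to 2, when 1 array was left out.

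Among 18 feedback and output genes of the ERK pathway, 12 had a higher R406 effect in HL-60 and 0 a lower one by limma (also 0 at an unadjusted p below 0.05). The list's median interaction was 0.67, with a median effect of 0.50 in HL-60 and -0.25 in U937. Called effects were 11 higher and 0 lower in HL-60 (again 0 unadjusted), and 1 higher and 8 lower in U937, and 6 members were higher in HL-60 and lower in U937. DUSP6, the phosphatase that dephosphorylates ERK in the cytoplasm, measured 717, 675 and 594 in HL-60 with R406, against 339, 297 and 289 with DMSO. In U937 DUSP6 measured 329, 378 and 401 with R406, against 344, 371 and 369 with DMSO. It was separated by treatment in HL-60 and interleaved in U937, with effects of 1.10 in HL-60 and 0.028 in U937 and an interaction of 1.07 ± 0.13 (SE, adjusted p = 0.000163). ETV5, an ETS factor downstream of ERK, moved in both lines. ETV5 measured 268, 293 and 284 in HL-60 with R406, against 189, 191 and 192 with DMSO. In U937 ETV5 measured 137, 124 and 131 with R406, against 221, 243 and 225 with DMSO. Its effect was 0.56 in HL-60 and -0.81 in U937, and the groups did not overlap in either line (interaction 1.37 ± 0.088, SE, adjusted p = 6.13e-07). The nuclear phosphatase DUSP5 had 0.83 in HL-60 and -0.46 in U937. HBEGF, an EGF receptor ligand, had 0.98 in HL-60 and -0.13 in U937, and PLAUR, the urokinase receptor, had 0.76 in HL-60 and -0.46 in U937, and each of the 3 was called in the interaction.

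**Figure D2:**
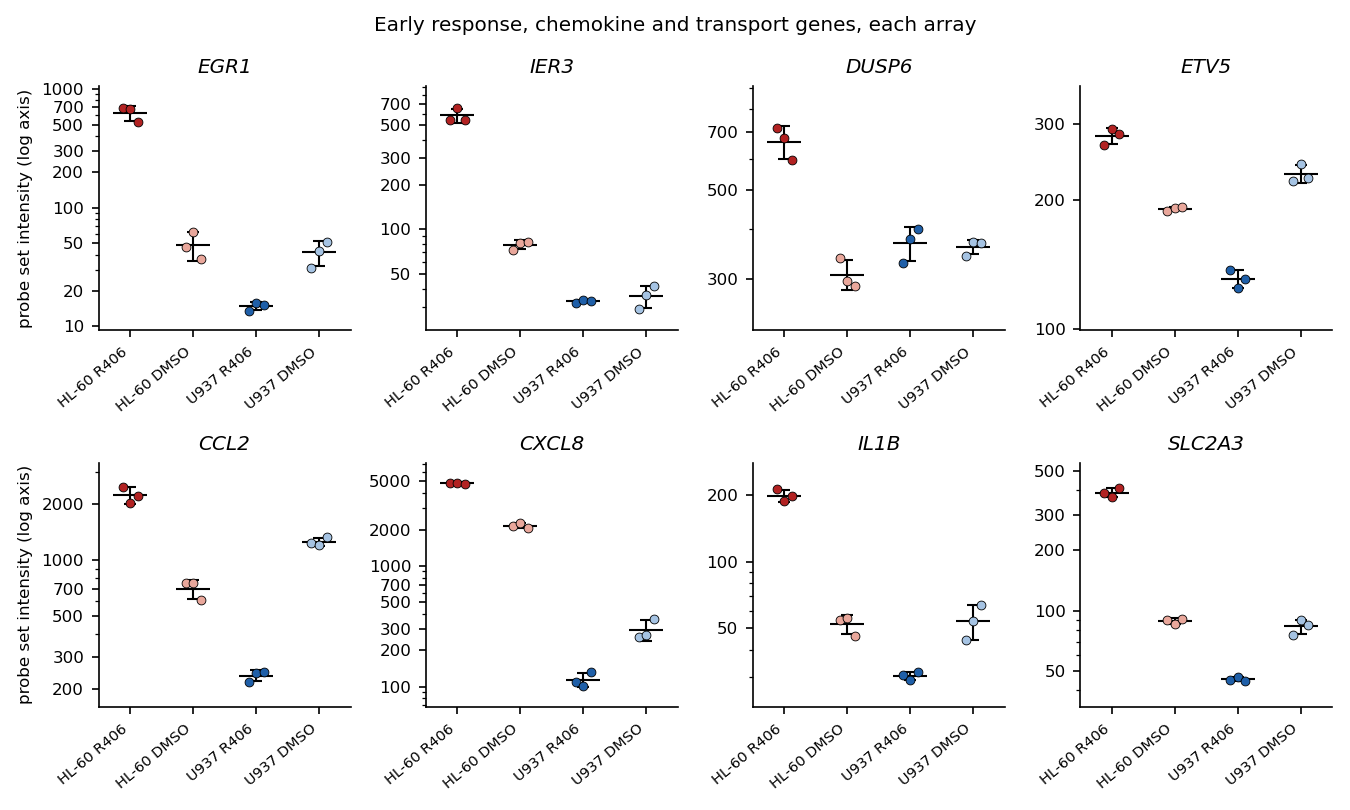
Intensity on a log axis for each array in HL-60 with R406, HL-60 with DMSO, U937 with R406 and U937 with DMSO, with the mean and SD of 3 arrays. EGR1, CCL2, CXCL8, IL1B, SLC2A3 and ETV5 have their R406 points above DMSO in HL-60 and below DMSO in U937, whereas IER3 and DUSP6 separate by treatment in HL-60 and overlap in U937.

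Secreted inflammatory mediators were among the genes with the largest opposite effects. Of 22 cytokine and chemokine genes 6 had a higher and 1 a lower interaction (2 lower without HL-60 R406 replicate 1 or U937 DMSO replicate 2), against 3.89% and 5.08% of all genes. The lower count is near its share. Called higher in HL-60 and lower in U937 were 4 of the 22, against 0.543% of all genes. CCL2, the chemokine that recruits CCR2-bearing monocytes, measured 2484, 2024 and 2207 in HL-60 with R406, against 749, 748 and 605 with DMSO. In U937 CCL2 measured 218, 246 and 249 with R406, against 1231, 1208 and 1326 with DMSO. The 2 vehicle groups were within 2-fold of each other, and the R406 groups were far apart. The effect was 1.68 in HL-60 and -2.40 in U937, with an interaction of 4.07 ± 0.14 (SE, adjusted p = 1.64e-09). IL1B, the inflammasome-processed cytokine, measured 212, 188 and 198 in HL-60 with R406, against 54.7, 55.4 and 46.1 with DMSO. In U937 IL1B measured 30.5, 29.1 and 31.7 with R406, against 44.0, 53.8 and 63.8 with DMSO. Its groups did not overlap in either line, and the interaction was 2.71 ± 0.16 (SE, adjusted p = 2.46e-07). A second IL1B probe set gave an interaction of 2.26.

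CXCL8, the neutrophil chemokine interleukin 8, stood on very different levels in the lines. It measured 4903, 4884 and 4776 in HL-60 with R406, against 2140, 2259 and 2071 with DMSO. In U937 CXCL8 measured 109.5, 102 and 131 with R406, against 256, 266 and 362 with DMSO. R406 arrays were above all DMSO arrays in HL-60 and below them in U937, and the interaction was 2.52 ± 0.17 (SE, adjusted p = 7.56e-07). Its other bright probe set gave 3.59. TNF averaged 613 ± 68.8 in HL-60 with R406 and 242 ± 43.8 with DMSO, and 17.6 ± 2.27 in U937 with R406 and 27.9 ± 5.08 with DMSO (SD, n = 3 each). The U937 groups lay near the array median, and the interaction was 1.97 ± 0.21 (SE, adjusted p = 4.30e-05). CCL23, a chemokine that attracts monocytes, ran the other way, with -0.39 in HL-60 and 0.72 in U937 (interaction -1.11 ± 0.089, SE). IL1R1, the signalling receptor for IL1B, was higher with R406 in HL-60 (1.93) and had -0.19 in U937, which was not called and was read near the floor, at means of 5.73 with R406 and 6.71 with DMSO. The interaction of IL1R1 was 2.12 ± 0.11 (SE, adjusted p = 7.97e-08).

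Targets of NF-kB, the factor that drives cytokine genes and its own inhibitors, were counted in the same way. Of 16 members 5 had a higher interaction and 0 a lower one (also 0 at an unadjusted p below 0.05), with a median of 0.38. In HL-60 8 were higher with R406 and 0 lower (0 unadjusted), and in U937 0 were higher (2 at an unadjusted p below 0.05) and 2 lower. The 8 fell to 5 without HL-60 R406 replicate 3 or HL-60 DMSO replicate 2, and the 2 lay between 0 and 2 when 1 array was left out. The interaction count fell to 3 without HL-60 R406 replicate 3, HL-60 DMSO replicate 2, U937 R406 replicate 1 or U937 R406 replicate 2. ICAM1, an adhesion receptor for leukocyte integrins, had 0.62 in HL-60 and -0.36 in U937 (interaction 0.98 ± 0.13, adjusted p = 0.000294). A second ICAM1 probe set was called in the interaction (1.41), and its dimmest one was not. RELB, an NF-kB subunit, had 0.43 in HL-60 and -0.42 in U937 (interaction 0.84 ± 0.17, adjusted p = 0.00748), at levels below the array median in all 4 groups. PTX3, a soluble pattern recognition protein, had 0.52 in HL-60 and -0.23 in U937, of which only the HL-60 effect was called (interaction 0.75 ± 0.13, adjusted p = 0.0027).

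Genes of other functions also moved in opposite directions. SLC2A3, the glucose transporter GLUT3, measured 389, 367 and 409 in HL-60 with R406, against 90.1, 85.3 and 90.8 with DMSO. In U937 SLC2A3 measured 45.0, 46.8 and 44.6 with R406, against 75.8, 89.2 and 85.0 with DMSO. The vehicle-treated lines had nearly equal levels, and all 5 of its probe sets were called higher in HL-60 and lower in U937. The interaction was 2.97 ± 0.099 (SE, adjusted p = 1.64e-09). SLC2A3 stood apart in size within its own list of glycolysis and hypoxia genes, whose median interaction was 0.095. Of its 29 genes 5 had a higher interaction, 3 of 29 without U937 R406 replicate 3 or U937 DMSO replicate 3, against 3.89% of all genes. None had a lower one, and at an unadjusted limma p below 0.05 the counts were 10 higher and 3 lower. PHLDA2, a growth-restraining imprinted gene of the placenta, had 1.61 in HL-60 and -1.07 in U937. TRIB2, a pseudokinase that degrades C/EBP alpha, had 1.85 in HL-60 and -0.40 in U937. ADORA2A, an adenosine receptor, had 1.30 in HL-60 and -0.63 in U937, and all 3 were called in both lines. ADORA2A lay below the array median in both U937 groups (12.4 with R406, 19.6 with DMSO) and in HL-60 with DMSO (21.2). PHLDA2 lay below it in HL-60 with DMSO (16.2), and a second, dim PHLDA2 probe set was called in neither line.

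Growth arrest and survival genes were counted next. Of 19 p53 targets 5 had a higher and 0 a lower interaction (1 lower at an unadjusted p below 0.05), and the 5 fell to 3 without HL-60 R406 replicate 2, U937 R406 replicate 3 or U937 DMSO replicate 3. TNFRSF10B, a TRAIL death receptor, had 0.95 in HL-60 and -0.35 in U937 (interaction 1.30 ± 0.089, SE, adjusted p = 1.05e-06). GADD45A, a growth arrest gene, had 0.72 in HL-60 and -0.22 in U937. CDKN1A, the p21 cell cycle inhibitor, had 1.12 in HL-60 and 0.20 in U937, and its interaction of 0.92 ± 0.22 (SE, adjusted p = 0.0218) lost its call in 5 of 21 other settings, among them those without HL-60 R406 replicate 2, HL-60 DMSO replicate 3, U937 R406 replicate 3 or U937 DMSO replicate 3. Of 16 BCL2 family genes 3 had a higher and 1 a lower interaction, with 4 higher and 2 lower in HL-60, and 0 higher (0 unadjusted) and 5 lower in U937. The 1 lower interaction, BCL2 itself, was lost without any 1 array other than U937 R406 replicate 2 or U937 DMSO replicate 2. The anti-apoptotic members BCL2A1 (1.41 in HL-60, -0.12 in U937) and MCL1 (0.87 in HL-60, 0.071 in U937) were higher with R406 in HL-60 only, and their interactions were 1.53 ± 0.085 and 0.80 ± 0.081 (SE).

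Primary granule genes were lower with R406 in HL-60. Of 12 primary granule genes 9 had a lower interaction and 0 a higher one, with a median of -0.84. In HL-60 0 were higher and 11 lower with R406 (unadjusted limma p below 0.05 also gave 0 higher in either comparison), with a median effect of -0.68, and in U937 4 were higher and 2 lower, with a median of 0.05. The list's calls moved by at most 1 gene when any 1 array was left out. In bulk RNA, fewer cells of a type and less RNA per cell cannot be told apart.

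PRTN3, proteinase 3, measured 154, 155 and 146 in HL-60 with R406, against 797, 755 and 804 with DMSO. In U937 PRTN3 measured 209, 214 and 222 with R406, against 259.8, 263 and 251 with DMSO. It fell in both lines, by 2.36 in HL-60 and by 0.26 in U937, and the interaction was -2.10 ± 0.081 (SE, adjusted p = 6.07e-09). CTSG, cathepsin G, measured 199, 208 and 187 in HL-60 with R406, against 822, 829 and 800.4 with DMSO. In U937 CTSG measured 6577, 7389 and 6833 with R406, against 6471, 6229 and 6540 with DMSO. The HL-60 groups were about 4-fold apart, and in U937 the R406 arrays lay above the DMSO arrays by a small step that was not called (0.11, adjusted p = 0.324). The interaction of CTSG was -2.15 ± 0.090 (SE, adjusted p = 1.31e-08). ELANE, neutrophil elastase, measured 793, 779 and 735 in HL-60 with R406, against 2894, 2453 and 2580 with DMSO. In U937 ELANE measured 3462, 3547 and 3399 with R406, against 3053, 2900 and 2878 with DMSO. ELANE was thus lower with R406 in HL-60 and higher in U937, both called, with an interaction of -2.01 ± 0.096 (SE, adjusted p = 5.06e-08). AZU1, the antimicrobial azurocidin, had -1.25 in HL-60 and 0.33 in U937, and CFD, complement factor D, had -0.72 in HL-60 and 0.75 in U937, called in opposite directions. MPO, the other main product of these granules, had -0.37 in HL-60, which was called, and an interaction of -0.22 ± 0.098 that was not (adjusted p = 0.231). A second MPO probe set had -0.30 in HL-60, which was not called (adjusted p = 0.074), and an interaction of -0.53 that was (adjusted p = 0.0478). In U937 MPO lay below the array median.

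**Figure D3:**
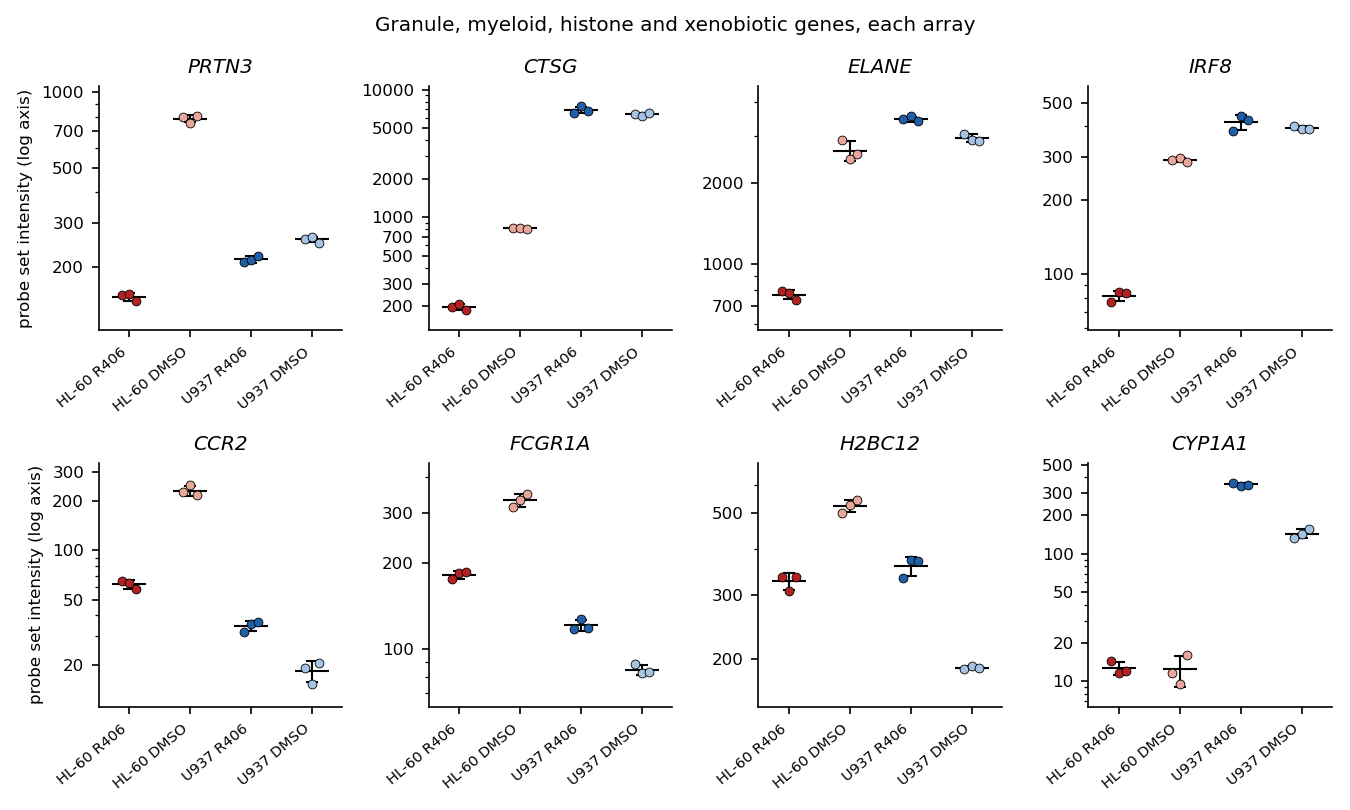
Intensity on a log axis for each array in HL-60 with R406, HL-60 with DMSO, U937 with R406 and U937 with DMSO, with the mean and SD of 3 arrays. PRTN3, CTSG, ELANE, IRF8, CCR2 and FCGR1A are lower with R406 in HL-60, H2BC12 is lower in HL-60 and higher in U937, and CYP1A1 is higher in U937 at levels near the floor in HL-60.

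Of 25 secondary granule and neutrophil genes 7 had a higher and 3 a lower interaction. In HL-60 13 were higher with R406 and 1 lower, and in U937 7 were higher and 1 lower. MMP9, gelatinase B, had 1.75 in HL-60 and -0.19 in U937 (interaction 1.93 ± 0.28, SE, adjusted p = 0.000781). Its mean was 54.3 in HL-60 with R406 and 15.4 with DMSO, and 15.3 in U937 with R406 and 17.6 with DMSO, so all but the first lay below the array median. PADI4, the histone-citrullinating enzyme of neutrophils, had 1.33 in HL-60 and 0.016 in U937, and S100A12, a calcium-binding alarmin, had 1.13 in HL-60 and 0.067 in U937, all 3 called in HL-60 only. PADI4 and S100A12 lay below the array median in both U937 groups. CYBB, the catalytic subunit of the phagocyte oxidase, was called in opposite directions, with 0.53 in HL-60 and -0.53 in U937. The lower count of 3 was 1 without U937 R406 replicate 1 or U937 DMSO replicate 1, and the 1 lower in HL-60 was lost without any 1 array other than U937 DMSO replicate 1.

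Of 27 monocyte and macrophage genes 2 had a higher and 6 a lower interaction. In HL-60 5 were higher and 5 lower, against 9.27% and 9.4% of all genes. In U937 10 were higher and 0 lower (1 at an unadjusted p below 0.05), against 8.32% and 6.95%. The median member averaged 20.6 in HL-60 and 18.3 in U937 with DMSO, below the array median of 22.2. A fall from there is hard to read, which limits the count of 0. CCR2, the receptor of CCL2, measured 64.8, 63.2 and 57.9 in HL-60 with R406, against 227, 248 and 216 with DMSO. In U937 CCR2 measured 31.9, 35.3 and 36.3 with R406, against 19.2, 15.3 and 20.5 with DMSO. The lines moved in opposite directions, the reverse of those of its ligand, and the U937 DMSO arrays lay below the array median. A second, dimmer CCR2 probe set was called lower in HL-60 (-0.90) and was not called in U937 (0.21, limma adjusted p = 0.109). The interaction of CCR2 was -2.76 ± 0.14 (SE, adjusted p = 7.27e-08), the lowest of the genes that reached an intensity of 50 in some group. FCGR1A, the high-affinity Fc receptor CD64, had -0.86 in HL-60 and 0.51 in U937 (interaction -1.37 ± 0.090, SE, adjusted p = 7.09e-07). CX3CR1, the fractalkine receptor, had -1.11 in HL-60 and 0.70 in U937, and MS4A6A, a membrane protein of monocytes, had -1.54 in HL-60 and 0.46 in U937, both in opposite directions. CHI3L1, a chitinase-like protein of macrophages, was called in U937 only, with 0.098 in HL-60 and 1.30 in U937. CD14, the lipopolysaccharide co-receptor, was called in HL-60 only, with 1.63 in HL-60 and 0.031 in U937, where its mean was 7.57 with R406 and 7.40 with DMSO. LY96, the MD-2 partner of the same receptor complex, was higher in both lines and more so in U937, with 0.38 in HL-60 and 1.66 in U937 (interaction -1.28 ± 0.15, SE, adjusted p = 0.000126), though both HL-60 groups lay below the array median.

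Transcription factors of the myeloid lineage were split evenly, with 4 higher and 4 lower interactions among 23. IRF8, which directs progenitors to the monocyte fate, measured 77.0, 84.3 and 83.1 in HL-60 with R406, against 292, 298 and 287 with DMSO. In U937 IRF8 measured 383, 441 and 423 with R406, against 401, 391 and 389 with DMSO. The HL-60 groups were separate and the U937 groups overlapped, and the interaction was -1.91 ± 0.092 (SE, adjusted p = 5.06e-08). CEBPB, a factor of emergency granulopoiesis and macrophages, had 0.69 in HL-60 and -0.39 in U937, called in opposite directions. GATA2, a progenitor factor, was called higher in HL-60 (1.22), and in U937 it lay below the array median in both groups (11.7 with R406, 15.1 with DMSO; -0.35, adjusted p = 0.0468). The other 2 GATA2 probe sets were not called in either line. TFEC, a macrophage-restricted factor, had the reverse pattern, with -0.54 in HL-60 and 0.54 in U937. The lower count was 2 without HL-60 R406 replicate 1 or 2, any HL-60 DMSO array, U937 R406 replicate 3 or U937 DMSO replicate 2.

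RNA of SYK, the named target of R406, was not called in either line, with -0.030 in HL-60, 0.049 in U937 and an interaction of -0.079 ± 0.082 (SE, 95% interval -0.26 to 0.099, adjusted p = 0.68). Of 22 genes of SYK and ITAM signalling 4 had a higher and 4 a lower interaction. In HL-60 11 were higher with R406 and 1 lower, and in U937 7 were higher and 1 lower. FGR, a SRC family kinase that phosphorylates ITAMs, had 0.99 in HL-60 and 0.088 in U937. LCP2, the SLP-76 adaptor, had 0.61 in HL-60 and -0.11 in U937, and both genes were called in HL-60 only. BLNK, the adaptor of B cells and some myeloid cells, was called in U937 only, with -0.049 in HL-60, where both groups lay below the array median, and 0.91 in U937. TYROBP, the ITAM chain DAP12, was higher in both lines, with 0.50 in HL-60 and 0.92 in U937, and the excess in U937 was called (interaction -0.41 ± 0.091, adjusted p = 0.0121). Among 17 integrin and adhesion genes 5 had a higher interaction and 2 a lower one, and the 5 fell to 3 without U937 R406 replicate 1. The integrin subunits ITGA4 (-0.60 ± 0.085) and ITGAL (-0.62 ± 0.11, SE) had a lower interaction. CD44, the hyaluronan receptor, had a higher interaction (0.66 ± 0.077), and its brightest probe set was called in U937 only, as a fall. Some dimmer CD44 probe sets were called both higher in HL-60 (0.258, 0.366 and 0.455) and lower in U937 (-0.508, -0.684 and -0.513). The others were not called in HL-60. ITGB3 lay below the array median in both lines, and its brightest probe set was not called.

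Of 29 lysosome genes 2 had a higher and 9 a lower interaction, against 3.89% and 5.08% of all genes, with a median of -0.16. The higher count is near its share. In HL-60 9 were higher with R406 and 2 lower, and in U937 16 were higher and 1 lower. The 2 higher interactions were 1 or 2, and the 1 lower in U937 0 or 1, when 1 array was left out. GM2A, the ganglioside activator protein, had -0.38 in HL-60 and 0.62 in U937 (interaction -0.99 ± 0.085, SE, adjusted p = 7.30e-06). GRN, progranulin, had 0.019 in HL-60 and 0.73 in U937, and HEXA, a hexosaminidase subunit, had 0.022 in HL-60 and 0.60 in U937, both called in U937 only.

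Of 35 replication-dependent histone genes 0 had a higher (1 at an unadjusted p below 0.05) and 7 a lower interaction, although the list's median was -0.017. In HL-60 0 were higher (3 at an unadjusted p below 0.05) and 3 lower, and in U937 7 were higher and 0 lower (0 unadjusted). The 7 higher in U937 fell to 4 without U937 DMSO replicate 1 or 3. The median member of the list lay below the array median with DMSO in both lines. Effects of such dim members are hard to read, which limits the counts of 0 and the list's median near 0. H2BC12 measured 336, 306 and 336 in HL-60 with R406, against 503, 528 and 543 with DMSO. In U937 H2BC12 measured 333, 372 and 371 with R406, against 187, 191 and 189 with DMSO. The groups were separate in both lines and in opposite directions, and the interaction was -1.60 ± 0.092 (SE, adjusted p = 1.80e-07). H2AC6 had -0.42 in HL-60 and 1.31 in U937, and H2BC6 had -0.28 in HL-60 and 0.64 in U937. Histone genes are near-identical copies, so their probe sets may read more than 1 of them.

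CYP1A1, the cytochrome induced by the aryl hydrocarbon receptor, measured 14.4, 11.6 and 12.1 in HL-60 with R406, against 11.6, 9.61 and 16.1 with DMSO. In U937 CYP1A1 measured 360.3, 343 and 348 with R406, against 134, 143 and 156 with DMSO. All HL-60 values lay below the array median, so the interaction of -1.23 ± 0.19 (SE, adjusted p = 0.00126) sets a called effect in U937 (1.28) against a line in which the probe set was dim. Of 11 targets of that receptor 1 had a higher and 1 a lower interaction (2 lower without U937 DMSO replicate 2 or 3), against 3.89% and 5.08% of all genes. At an unadjusted limma p below 0.05, 1 was higher and 4 were lower. In HL-60 1 was higher with R406 and 0 lower (1 unadjusted), and in U937 4 were higher and 1 lower. The shares of all genes called higher were 9.27% in HL-60 and 8.32% in U937. With 1 called each way, the interaction counts gave no direction for the list. TMT1A, a methyltransferase of lipid droplets, had 0.030 in HL-60 and 1.43 in U937, but 2 other probe sets of it were not called in the interaction. SLPI, a secreted inhibitor of neutrophil elastase, had -0.89 in HL-60 and 0.90 in U937 (interaction -1.79 ± 0.17, SE, adjusted p = 1.57e-05).

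Amino acid stress genes under ATF4 gave 8 higher and 4 lower interactions among 29. In HL-60 3 were higher and 12 lower, and in U937 0 were higher (0 unadjusted) and 17 lower. The 4 lower interactions fell to 2 without HL-60 DMSO replicate 2 or 3, any U937 R406 array or U937 DMSO replicate 2. TRIB3, a pseudokinase induced by amino acid shortage, had 0.83 in HL-60 and -0.73 in U937 (interaction 1.56 ± 0.096, SE, adjusted p = 3.65e-07). DDIT4, an inhibitor of mTORC1, had 0.46 in HL-60 and -0.64 in U937, called in opposite directions. ASS1, argininosuccinate synthase, fell in both lines, by 2.07 in HL-60 and by 0.53 in U937 (interaction -1.54 ± 0.087, SE, adjusted p = 1.59e-07). Of 18 aminoacyl-tRNA synthetases, which charge tRNAs, 0 were higher and 6 lower with R406 in HL-60, and 0 were higher and 12 lower in U937 (0 higher in either line unadjusted). Of these, 4 had a higher interaction and 0 a lower one (also 0 at an unadjusted p below 0.05), with a median of 0.083, but the count was 2 or 3 whichever array was left out, and 2 of 18 without HL-60 R406 replicate 1 or 3, HL-60 DMSO replicate 2, any U937 R406 array or U937 DMSO replicate 2 or 3. WARS1 had -0.11 in HL-60 and -0.66 in U937, and MARS1 had -0.12 in HL-60 and -0.74 in U937, called in U937 only.

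Several programs showed no called difference between the lines or nearly none. Of 29 genes of MYC and ribosome biogenesis 0 had a higher and 0 a lower interaction by limma (2 higher and 1 lower at an unadjusted p below 0.05), while 27 were lower with R406 in HL-60 and 27 in U937, with a median effect of -0.37 in HL-60 and -0.39 in U937 and 26 lower in both. A call of no difference was asked for separately, as a 95% interval of the interaction within ±0.5 in a gene called the same way in both lines. By that measure 25 of the 29 (86.2%) were alike, against 320 of all genes (2.63%). Of the 353 genes called lower in both lines, however, 320 met it, as did 25 of the 26 in this list. The bound of 0.5 is also wider than the list's median effects. The measure thus added little to the shared calls. MYC, the growth factor-responsive oncogene, measured 4046, 3999 and 3608 in HL-60 with R406, against 5678, 5903 and 6352 with DMSO. In U937 MYC measured 1896, 1859 and 1977 with R406, against 3159, 3382 and 3441 with DMSO. It was lower in both lines with no overlap, by effects of -0.62 in HL-60 and -0.80 in U937, and the interaction was 0.18 ± 0.096 (SE, 95% interval -0.030 to 0.39, adjusted p = 0.347). MRTO4, a ribosome assembly factor, had -0.59 in HL-60 and -0.56 in U937 (interaction -0.030 ± 0.10, SE). Its promoter is shown because it holds an E-box, CACGTG, the letters MYC binds with MAX. The window is chr1:19251555-19251854 on the plus strand of GRCh38.p14 in RefSeq, and capitals mark the E-box, at 15 to 20 from the start.
MRTO4 promoter: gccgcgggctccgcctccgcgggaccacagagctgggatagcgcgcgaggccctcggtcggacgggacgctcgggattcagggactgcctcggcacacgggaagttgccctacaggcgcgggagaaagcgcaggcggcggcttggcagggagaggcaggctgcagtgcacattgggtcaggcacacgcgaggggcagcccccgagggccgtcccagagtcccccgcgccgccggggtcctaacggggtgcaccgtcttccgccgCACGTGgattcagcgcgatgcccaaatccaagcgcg
CACGTG was found in 11 of the 24 list members with a window, and in 2030 of 27305 windows (7.43%) or 9.43% of those of measured genes. It reads the same on both strands, and a match is a description of these letters and not of MYC binding.

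Mitotic genes rose in both lines. Of 34 members 31 were higher with R406 in HL-60 and 33 in U937, with a median effect of 0.42 in HL-60 and 0.41 in U937 and none lower at an adjusted or an unadjusted limma p below 0.05. The alike measure held for 29 of the 34 (85.3%), against 284 of all genes (2.33%). Of the 336 genes called higher in both lines, 284 met it, as did 29 of the 31 in this list, so it added little to the shared calls. The 1 member with a called interaction was ASPM (-0.32 ± 0.087, adjusted p = 0.0373), which lost it in 13 of 21 other settings, 11 of them without 1 array other than HL-60 DMSO replicate 3. CDC25C, the phosphatase that starts mitosis, had 0.82 in HL-60 and 0.75 in U937. A fit that also took in the other 12 arrays called only 7 mitotic genes in HL-60 and 6 in U937. Other genes that met the alike measure were the differentiation inhibitor ID2 (0.90 in HL-60, 0.85 in U937), the atypical cyclin CCNG2 (0.93 in HL-60, 0.73 in U937) and the neuropeptide GAL (-0.93 in HL-60, -0.94 in U937). CCND2, cyclin D2 (-0.65 in HL-60, -0.93 in U937), also met it. Its interaction was 0.28 ± 0.094 (SE, limma adjusted p = 0.099), so meeting the bound of 0.5 does not show equal effects. HMOX1, haem oxygenase, was higher in both lines, with 1.13 in HL-60 and 1.38 in U937, and its interaction of -0.25 ± 0.16 was not called, but the 95% interval of -0.60 to 0.10 reached beyond 0.5. Of 18 unfolded protein response genes 0 had a called interaction by limma (3 were lower at an unadjusted p below 0.05). That is near the 3.89% higher and 5.08% lower of all genes and shows no likeness of the lines. A dimmer probe set of the member CALR was called by limma (-0.72, adjusted p = 0.0022). In HL-60 12 were lower with R406 and in U937 7, with medians of -0.34 in HL-60 and -0.16 in U937, and 7 of the 18 met the alike measure. Of 29 cytosolic ribosomal protein genes 0 had an interaction with an adjusted or unadjusted limma p below 0.05.

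**Figure D4:**
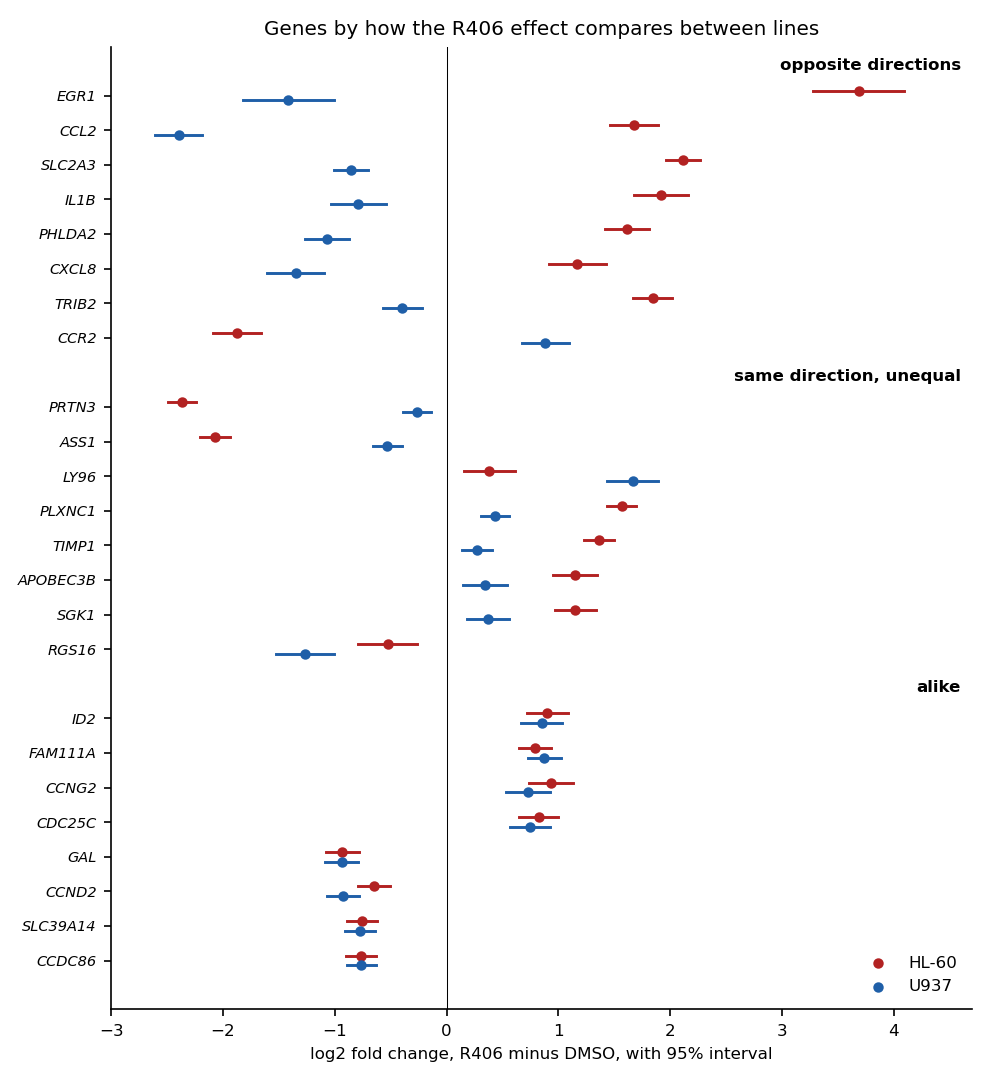
Log2 R406 effects with 95% intervals in HL-60 and U937 for genes called in opposite directions, genes called the same way with unequal size, and genes alike in the lines. The intervals lie on opposite sides of 0 for CCL2 and SLC2A3, on the same side but apart for PLXNC1 and ASS1, and overlap for GAL and ID2.

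Of the 43 genes called the same way in both lines and in the interaction, 31 had the larger effect in HL-60 and 12 in U937. PLXNC1, a semaphorin receptor, had 1.57 in HL-60 and 0.43 in U937 (interaction 1.13 ± 0.085, SE, adjusted p = 2.05e-06). TIMP1, an inhibitor of metalloproteinases, had 1.36 in HL-60 and 0.27 in U937, and SGK1, a kinase of the AKT family, had 1.15 in HL-60 and 0.37 in U937. RGS16, which ends G protein signals, was lower in both lines, with -0.53 in HL-60 and -1.27 in U937 (interaction 0.74 ± 0.17, SE, adjusted p = 0.0162). A second RGS16 probe set was also called lower in both lines (-0.70 in HL-60, -0.80 in U937), but its interaction of 0.097 was not called (adjusted p = 0.869).

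**Figure D5:**
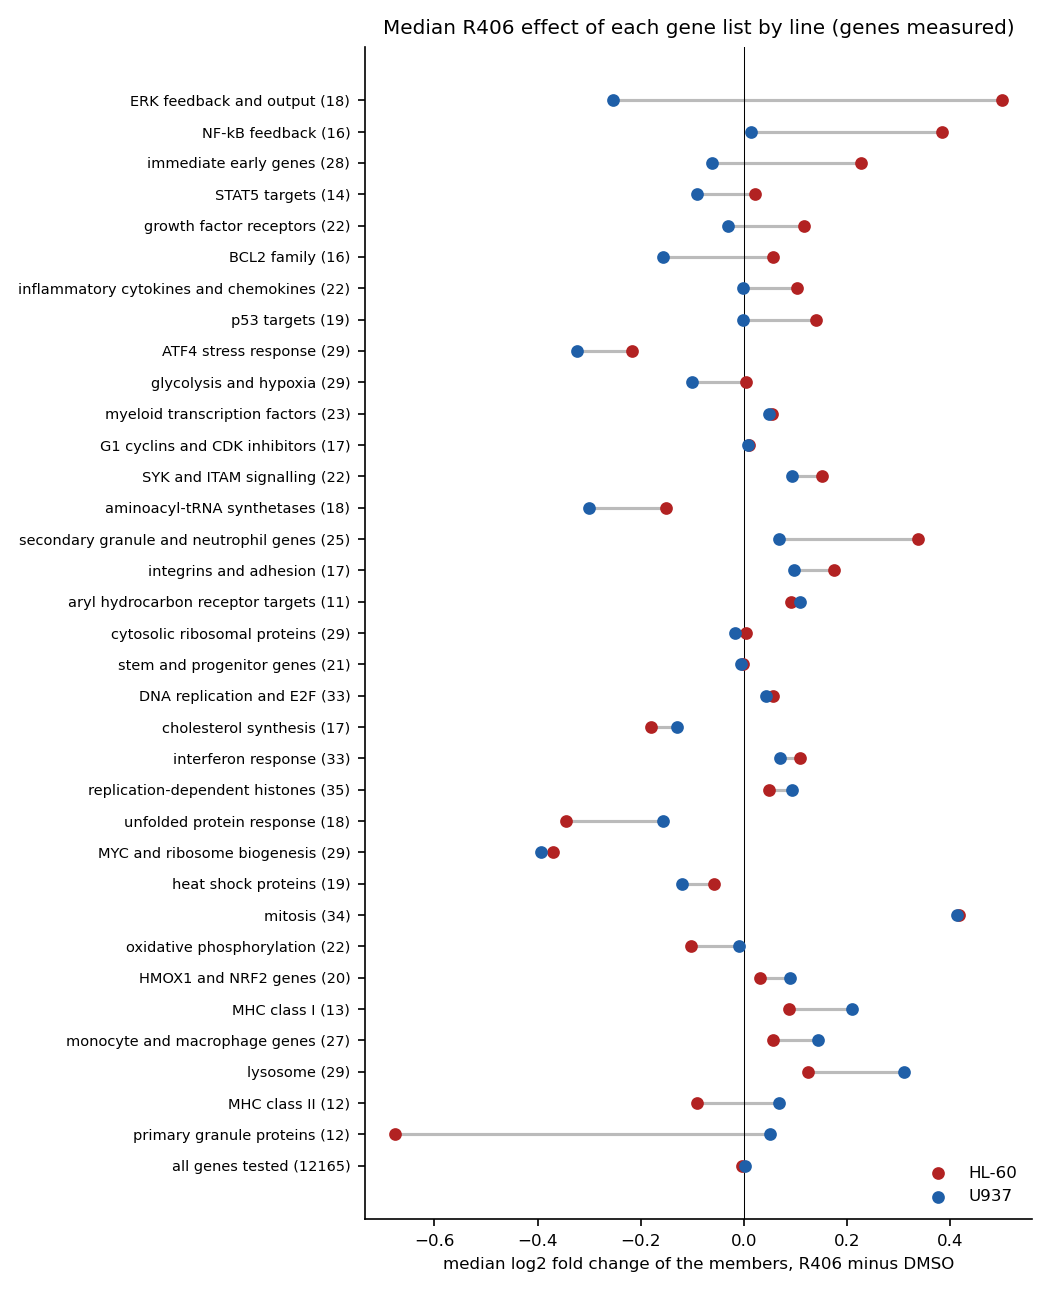
Median log2 R406 effect of each gene list in HL-60 and in U937, ordered by the median interaction, with all genes at the bottom. The ERK list has 0.50 in HL-60 and -0.25 in U937, the primary granule list has -0.68 in HL-60 and 0.05 in U937, and the mitosis list (0.42 in HL-60, 0.41 in U937) and the MYC list (-0.37 in HL-60, -0.39 in U937) have nearly equal points.

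Array medians ran between 21.5 and 23.0. The log2 ratio of the 3' to the 5' probe sets of ACTB, a sign of RNA integrity, had an interaction of -0.09 (exact two-sided permutation test, p = 0.365 over 400 arrangements) and that of GAPDH -0.0054 (p = 0.915). Within HL-60 the ACTB ratio differed by -0.13 (exact p = 0.1, the smallest that 3 against 3 allows) and within U937 by -0.039 (exact p = 0.6). Of the erythroid, megakaryocyte, B cell and fibroblast or epithelial markers 0 had a called interaction by limma, and at an unadjusted p below 0.05 it was 2 erythroid genes and 1 fibroblast or epithelial gene. Below the array median in every group lay 9 of 10 erythroid, 11 of 11 megakaryocyte, 9 of 9 B cell and 17 of 19 T and NK cell markers. NKG7 (-0.52 ± 0.085) and CD4 (-0.49 ± 0.14, called in 6 of 21 other settings, 2 of them without HL-60 R406 replicate 1 or HL-60 DMSO replicate 2) were the T and NK markers with a called interaction. Where a gene lay below the array median in both groups of a line, its effect there was read near the floor. Of the 473 genes with a higher interaction this held for 44 in HL-60 and 65 in U937, and of the 618 with a lower one for 69 in HL-60 and 74 in U937. In the cytokine, monocyte, MHC class II and histone lists the median member lay below the array median with DMSO in both lines. Of the 846 further probe sets of called genes, 695 had the same sign of interaction, 272 were called the same way and 0 the opposite way.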

How the data were processed

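RNA of R406-treated and vehicle-treated HL-60 and U937 cells was measured on Affymetrix HT U133A arrays, 3 per group. The deposited intensity values were made by the authors with RMA, per the submitters' processing notes, whose version is not given in the sources used here. The values run from 3.41 to 11849 and were therefore read as linear. The stated dose is 4 µM in the treatment protocol, while the series' design text gives the same figure in another unit, and the protocol was followed. Of 22277 probe sets, 62 control probe sets, 568 with several gene symbols and 1923 with none were left out. From the deposited intensities, the 4 group means of log2(intensity + 1) over 12 arrays were estimated by lmFit and moderated by eBayes (limma 3.58.1, R 4.3.3), which left 8 residual and 5.09 prior degrees of freedom, with the Benjamini-Hochberg adjustment over 19724 probe sets. The fit was tested on simulated data. The number of arrays limits the precision.

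The members and gene lists were chosen with earlier results of these data known, so that no list count is independent support of a pattern seen before. Genes were named by a rule: the 15 highest and 15 lowest called interactions with an intensity of 50 in some group, the 8 largest opposite and the 8 largest unequal effects, 8 alike genes, up to 4 members of each list by the smallest interaction p, and 20 further genes of interest. KLF4, SRF and MRTO4 were named outside that rule, after their values were seen. Alternatives were quantile normalization, median centring, a pseudocount of 16, dim probe sets left out, the mean probe set of a gene or 1 per gene, all 24 arrays in the fit, trended robust variances, a replicate block and leaving out each array. Deviations from the group mean correlated between -0.0174 and 0.0381 for same-numbered R406 and DMSO arrays of a line, so the numbers were not taken as pairs. Promoter windows came from RefSeq (GRCh38.p14) and matched 9711 of 12165 genes. Detection calls, scan dates and array batches were not used here.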

Additional observations from a re-analysis of the deposited data

Results flagged for a closer look

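There were 146 genes called with R406 in both lines in opposite directions and in the interaction, 66 of them higher in HL-60 (0.543% of all genes) and 80 lower in HL-60 (0.658%). The 8 with the largest difference between the lines, tested by the limma interaction, were EGR1 (5.10), CCL2 (4.07), SLC2A3 (2.97), CCR2 (-2.76), IL1B (2.71), PHLDA2 (2.68), CXCL8 (2.52) and TRIB2 (2.24), each as the log2 HL-60 effect minus the U937 effect. The opposite direction of SLC2A3 was called by all 5 of its probe sets, and that of EGR1 by 1 of 2. For CCR2 and PHLDA2 a second, dimmer probe set did not call it. For IL1B and CXCL8 the next brightest probe set did, while the dim remaining ones of CXCL8 did not.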

How the results depend on the processing

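The interaction called 700 probe sets higher and 840 lower. With quantile normalization these counts were 723 and 837, with median centring 784 and 742, with dim probe sets left out 825 and 987, with a pseudocount of 16 999 and 1131, with 1 probe set per gene 523 and 680, with the mean probe set 557 and 672, with 24 arrays 503 and 609, and with trended robust variances 952 and 1067. Leaving out 1 array gave 563 to 663 higher and 674 to 790 lower. The share of higher calls was 45.5%, and between 43.5% and 51.4% over these settings. With the replicate number as a block the interaction called 595 higher and 675 lower, HL-60 1439 and 1420, and U937 1182 and 970. Deviations of an array from its group mean did not always correlate best with those of the array of its own number.

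Over 188 named genes and 3936 gene settings, 3677 kept the direction and the side of the threshold and 26 turned round. All 26 belong to genes with an interaction near 0. GAL was -0.0215 with quantile normalization and -0.0303 to 0.0671 without 1 array, CDC25C -0.04 with the mean probe set and -0.0201 to 0.13, CCDC86 0.0177 with median centring and -0.0479 to 0.0399, ID2 -0.0423 to 0.126, SLC39A14 -0.0271 to 0.0519, CSF1R -0.0946 to 0.0924 and ITGB3 -0.121 to 0.139. Calls of FOS, CDKN1A, ASPM, CD4, NFKB1, GARS1, YARS1, BCL2, CDK4, HSPA1A, IFI35, CCNE1, PKM, SDHA, SREBF2 and ME1 were lost in 5 to 15 of 21 settings. The cause was not tested. The 3 arrays a group and the signal near the floor in 1 line limit the rest.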

Other observations

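Of 22 growth factor receptors 5 had a higher and 3 a lower interaction. KIT, the stem cell factor receptor, had -0.94 in HL-60 and 0.29 in U937 (interaction -1.22 ± 0.20, SE, limma adjusted p = 0.00162), with both U937 groups below the array median. CSF2RB, the shared beta chain of the GM-CSF and interleukin 3 receptors, had 0.32 in HL-60 and -0.32 in U937, and IFNGR2, an interferon gamma receptor chain, had 0.89 in HL-60 and 0.17 in U937. HLA-DMA, a peptide exchange factor of MHC class II, averaged 10.1 ± 0.256 in HL-60 with R406 and 13.6 ± 1.19 with DMSO, and 26.7 ± 1.68 in U937 with R406 and 10.5 ± 1.92 with DMSO (SD, n = 3 each; interaction -1.67 ± 0.15, SE, limma adjusted p = 1.20e-05). Of the other 11 MHC class II genes 0 had a called interaction by limma, against 3.89% higher and 5.08% lower of all genes, and 2 had one at an unadjusted p below 0.05. The list's lower count of 1 was 2 without HL-60 DMSO replicate 1 or 3, and up to 3 in other settings. A second, dimmer probe set of the member RFX5 was called by limma (-0.41, adjusted p = 0.0121). Of 33 interferon response genes 1 had a higher and 4 a lower interaction, against 3.89% and 5.08% of all genes. The 1 was 0 to 2 when 1 array was left out, and it moved for 8 arrays (HL-60 R406 replicates 1 and 3, HL-60 DMSO replicates 1 and 2, U937 R406 replicates 1 and 2, and U937 DMSO replicates 2 and 3). TRIM22 had -0.36 in HL-60 and 0.48 in U937.

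The complement receptor CR1 (1.91 in HL-60, 0.18 in U937) and the surface antigen CD52 (1.85 in HL-60, 0.14 in U937) were called higher with R406 in HL-60 and not called in U937, where both lay below the array median of 22.2 in both groups. By contrast ADGRA2, an adhesion G protein-coupled receptor, was called lower in HL-60 (-1.53) and not called in U937 (0.12).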
